A study of Mus musculus with 9 samples.

Results

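Hox genes encode the homeodomain transcription factors that give cells their position along the head-to-tail axis. In mammals they lie in 4 clusters, HoxA to HoxD, and genes of the same paralog number in different clusters are copies of each other. The members described here are the rows of the gene count table whose symbol is Hox, a cluster letter and a number. Described here are 37 of the 39 Hox genes in the annotation, of 33212 rows in all, with 10 in HoxA, 10 in HoxB, 9 in HoxC and 8 in HoxD. Rows at 0 were kept. The other 2 are not analysed here, and every count, sum and median of Hox genes covers the 37 alone.

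The RNA came from αTC1 cells, a glucagon-producing line derived from mouse pancreatic alpha cells, grown in low-glucose medium. Cells had 4 µM EPZ011989 for 7 days (n = 4) or the solvent DMSO for 7 days (n = 5), and poly-A RNA was sequenced. EPZ011989 is an inhibitor of EZH2, the methyltransferase in the Polycomb complex PRC2. The line goes back to a tumour of a transgenic mouse, so all 9 libraries share 1 immortalised background. The labels call the libraries biological replicates and do not say whether they were separate cultures, and p-values cover the spread of these libraries alone.

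As background, low paralog numbers lie at the 3′ end of a cluster and are used early and towards the head, and high numbers lie at the 5′ end and are used late and towards the tail. Hox clusters are classic targets of PRC2, which methylates histone H3 over the stretches that a cell keeps silent, and of the Trithorax proteins, which keep used stretches active. Hox proteins bind DNA together with the cofactors of the Pbx, Meis and Pknox families, and retinoic acid is a known inducer of the 3′ genes. Islet cells are of endodermal origin, and no Hox gene is among the textbook markers of alpha cells.

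Paralogs share most of their homeobox, and the stretch that encodes the DNA-contacting helix shows how close the copies are. The 3 genes of paralog group 10, of which Hoxc10 rose, Hoxa10 was not called and Hoxd10 stayed below the count filter, are shown over 60 coding bases, read 5′ to 3′ from the GENCODE M21 transcripts. Capitals mark the 12 positions where the 3 differ.
Hoxc10: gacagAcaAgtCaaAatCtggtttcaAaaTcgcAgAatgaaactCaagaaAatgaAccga
Hoxa10: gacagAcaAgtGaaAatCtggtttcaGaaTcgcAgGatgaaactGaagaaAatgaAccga
Hoxd10: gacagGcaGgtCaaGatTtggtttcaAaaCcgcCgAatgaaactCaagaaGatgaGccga
Over 37 pairs of genes with the same number, the longest identical run of bases was 12 to 50 bases, with a median of 17. The run was 50 bases for Hoxb9 and Hoxc9, 47 for Hoxb3 and Hoxd3, 40 for Hoxb9 and Hoxd9 and 31 for Hoxa9 and Hoxc9. No read length stands in the sources used here, and how reads inside such runs were assigned was not tested. Levels are given in CPM, counts scaled to library size.

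Of the 37 Hox genes, 7 were at 0 in all libraries and 9 had counts in EPZ011989 libraries but in no DMSO library. The filter on low counts was passed by 23 genes, and 14 stayed below it, of which 7 had counts. EPZ011989 raised 11 of the 23 and lowered 0, by edgeR's quasi-likelihood F test with Benjamini-Hochberg adjustment over 14754 genes and a threshold of 0.05. Of the 14754 genes as a whole, 16.2% were called higher and 7.96% lower. At an unadjusted p under 0.05 edgeR gave 13 of the 23 higher and 0 lower, and among the same 23 DESeq2 called 12 higher and 0 lower and limma-voom 11 and 0. In bulk RNA a change in the number of cells that use a gene and a change in RNA per cell cannot be told apart. Of the 23, 11 were called higher and by at least 2-fold, beside 8.69% of all genes tested, and in 11 each EPZ011989 library lay above each DMSO library, beside 16.1% of all genes tested. The median log2 fold change of the 23 was 0.95, also with the 3 genes at 0 in DMSO set at their lower bound, against 0.03 over all genes tested. Of the 23, 7 passed the filter through their EPZ011989 libraries alone, and 6 of these are among the 11 that rose. Those 6 thus entered the count through the group where they were high, while Hoxb4, which passed likewise, was not called.

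The level of a gene bears on how often it is called. Among genes averaging under 1 CPM over the libraries, 5 of 10 Hox genes were higher, beside 20.8% of all such genes. These 5, Hoxb9, Hoxc5, Hoxc8, Hoxc13 and Hoxd3, all passed the filter through their EPZ011989 libraries alone, so the 5 of 10 is a description. Between 1 and 10 CPM, 5 of 9 Hox genes were higher, Hoxc9 having passed in the same way, beside 33.5% of all. At 10 CPM or more, 1 of 4 Hox genes was higher, beside 9.87% of all. With no filter, 11 of the 30 Hox genes with any count were higher, beside 11.2% of all genes, and 0 were lower, beside 5.14%. Of the 9 that were at 0 in DMSO, where a call could only be higher, 4 were called, beside 12.4% of all such genes.

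**Figure D1:**
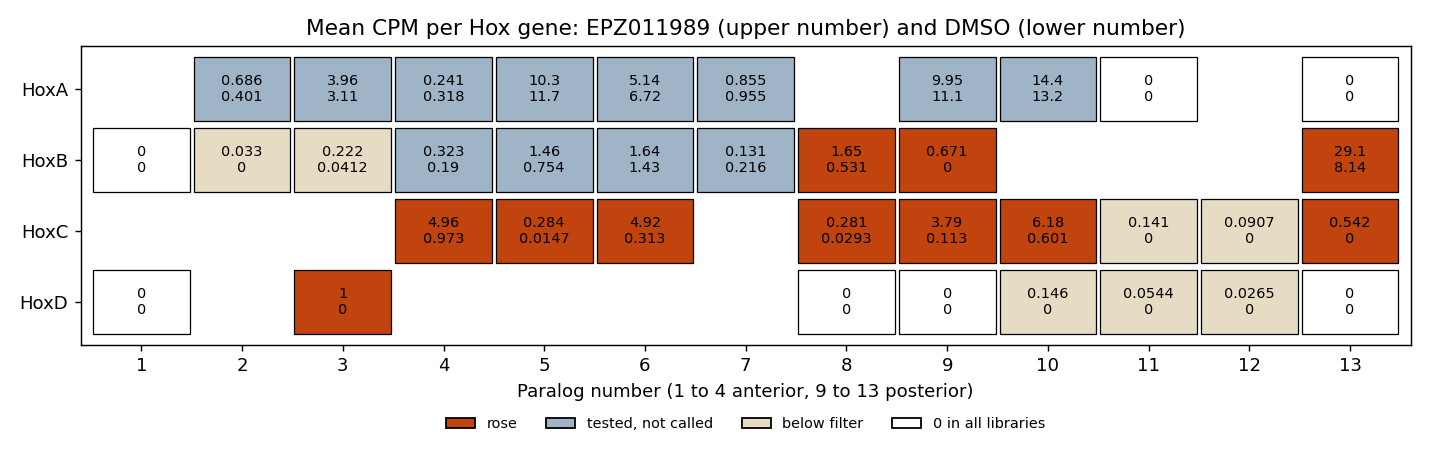
Mean CPM of the 37 Hox genes by cluster (rows) and paralog number (columns), with the EPZ011989 mean as the upper number and the DMSO mean as the lower number in each cell and the outcome of edgeR's test as the colour. In the HoxC row the 7 genes that passed the filter were higher, 4 of them having passed through EPZ011989 libraries alone, and 0 of the 8 HoxA genes that passed were called. Of all genes tested, 16.2% were called higher and 7.96% lower.

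HoxC rose for 7 of 7 genes that passed the filter, HoxB for 3 of 7, HoxA for 0 of 8 and HoxD for 1 of 1, beside 16.2% of all genes tested. With 8 genes, 0 is near that share and is not a result about HoxA. Of these risers, 4 in HoxC (Hoxc5, Hoxc8, Hoxc9 and Hoxc13), 1 in HoxB (Hoxb9) and the 1 in HoxD (Hoxd3) passed through their EPZ011989 libraries alone. They entered the count through the group where they were high, so the counts per cluster are a description. The median log2 fold change of the genes that passed was 3.96 in HoxC (3.36 with Hoxc13 at its bound), 0.95 in HoxB and -0.16 in HoxA. Hoxc5 and Hoxc8, with at most 7 counts in any DMSO library, kept their fitted values in both HoxC medians. Differences between clusters were not tested. By position, 2 of 6 passed genes of paralog groups 1 to 4 rose, 4 of 10 of groups 5 to 8, and 5 of 7 of groups 9 to 13. Beside these stands the same 16.2% of all genes tested, and 1, 2 and 3 of these risers were let in by EPZ011989 libraries alone.

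Summed over a cluster, HoxC stood at 22.8, 16.3, 24.5 and 21.05 CPM in the EPZ011989 libraries, against 2.15, 2.28, 1.51, 1.91 and 2.37 CPM in the DMSO libraries. HoxB summed to 34.8, 27.2, 37.1 and 41.9 CPM with EPZ011989, against 10.3, 14.8, 9.94, 9.08 and 12.5 CPM with DMSO. Neither pair of groups overlapped. HoxA summed to 45.5 ± 1.9 CPM with EPZ011989 and 47.4 ± 1.7 CPM with DMSO (SD, n = 4 and 5), and these ranges did overlap. HoxD summed to 0.831 to 1.56 CPM with EPZ011989 and to 0 in all 5 DMSO libraries.

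In the EPZ011989 libraries HoxA held 44.1% of the summed Hox CPM, against 78.0% in DMSO. HoxB held 34.2% with EPZ011989 and 18.6% with DMSO, and HoxC 20.5% with EPZ011989 and 3.36% with DMSO. These are shares of counts, not corrected for gene length. The sum over all 37 genes was 103 ± 9 CPM with EPZ011989 and 60.8 ± 2.1 CPM with DMSO. Within HoxB, Hoxb13 alone made up 82.6% of the EPZ011989 sum and 72.0% of the DMSO sum.

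**Figure D2:**
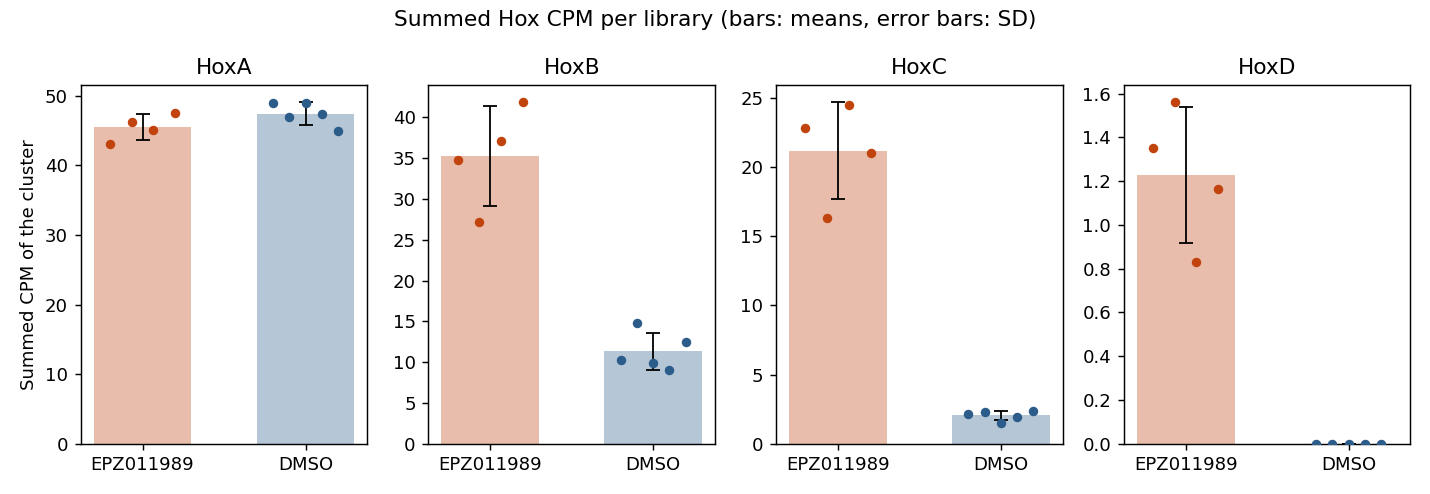
Summed CPM of each Hox cluster, with bars for the group mean, error bars for 1 SD and a point for each library, EPZ011989 (n = 4) beside DMSO (n = 5). HoxA averages 45.5 CPM with EPZ011989 and 47.4 CPM with DMSO, while HoxC stands at 21.2 CPM with EPZ011989 and 2.04 CPM with DMSO.

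HoxC, on chr15:102921103-103036852 (GRCm38, the assembly also called mm10), is used in the trunk and limb-level spinal cord. Every HoxC gene of the table had counts in EPZ011989 libraries, and 3 of the 9 had none in DMSO. Hoxc6, known for forelimb-level motor neurons, had 5.67, 4.15, 5.26 and 4.62 CPM with EPZ011989, against 0.284, 0.368, 0.304, 0.152 and 0.457 CPM with DMSO. The lowest EPZ011989 library was far above the highest DMSO library. Its log2 fold change was 3.96 ± 0.26 (SE) with an adjusted p of 2.53e-06 by edgeR's test.

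Hoxc9, which marks the thoracic spinal cord, had 4.07, 2.48, 4.01 and 4.59 CPM with EPZ011989, against 0.0947, 0.0737, 0.0830, 0.0844 and 0.229 CPM with DMSO. The groups did not overlap, and the fifth DMSO library was the highest of its group. The log2 fold change was 5.04 ± 0.35, the largest among the HoxC genes with counts in DMSO (adjusted p = 3.59e-06, edgeR), and it ranged from 3.93 to 5.45 over the alternatives. The DMSO libraries held only 7, 5, 6, 5 and 16 counts of Hoxc9, so the size of this fold rests on few counts. Hoxc10, known for hindlimb-level motor neurons, had 6.63, 4.87, 7.32 and 5.89 CPM with EPZ011989, against 0.460, 0.560, 0.443, 0.641 and 0.900 CPM with DMSO. It differed without overlap, with a log2 fold change of 3.36 ± 0.23 (adjusted p = 3.16e-06, edgeR). Its exons share 166 bases on the same strand with the annotated exons of Hoxc5, 8.7% of those of Hoxc10, and counts there cannot be told apart.

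Hoxc4, at the 3′ end of the cluster, had 4.84, 3.602, 6.84 and 4.57 CPM with EPZ011989, against 1.31, 1.21, 0.678, 0.912 and 0.757 CPM with DMSO. Per length of exons it had the highest DMSO level of the HoxC genes, and its log2 fold change of 2.35 ± 0.25 was the lowest of those with counts in DMSO (adjusted p = 6.13e-05, edgeR). The groups did not overlap.

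The other HoxC genes reached at most 1.03 CPM in a library. Hoxc13, known for hair and nail formation, had 1.03, 0.338, 0.264 and 0.533 CPM with EPZ011989 and 0 in each DMSO library. A count of 0 allows up to 12 counts in a library (3 fragments at about 4 counts each), which is 0.162 to 0.203 CPM in the DMSO libraries. Against that floor Hoxc13 was at least 3.08-fold higher (adjusted p = 0.00155, edgeR). Hoxc5 averaged 0.284 ± 0.069 CPM with EPZ011989 and 0.0147 ± 0.0329 CPM with DMSO, where 4 of 5 libraries were at 0 (adjusted p = 0.0103, edgeR). The 166 bases that it shares with Hoxc10 are 5.37% of its exons, and it had 15 to 26 counts per EPZ011989 library where Hoxc10 had 346 to 555, so the part of shared reads in the Hoxc5 call was not tested. Hoxc8, used at brachial and thoracic levels, averaged 0.281 ± 0.087 CPM with EPZ011989 and 0.0293 ± 0.0512 CPM with DMSO (adjusted p = 0.0297, edgeR). Neither pair of groups overlapped, though the Hoxc8 call was lost in 10 of 19 alternative analyses that could test it, with adjusted p-values reaching 0.142, and the Hoxc5 call in 2 of 19. Hoxc11 and Hoxc12 stayed below the filter. Hoxc11 had 0.0663, 0.281, 0.145 and 0.0702 CPM with EPZ011989 and 0 with DMSO, and its adjusted p was 0.0214 in edgeR's fit with no filter and 0.00164 with DESeq2. Hoxc12 had counts in 3 of 4 EPZ011989 libraries, and its adjusted p was 0.0664 in edgeR's fit with no filter and 0.0677 with DESeq2.

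**Figure D3:**
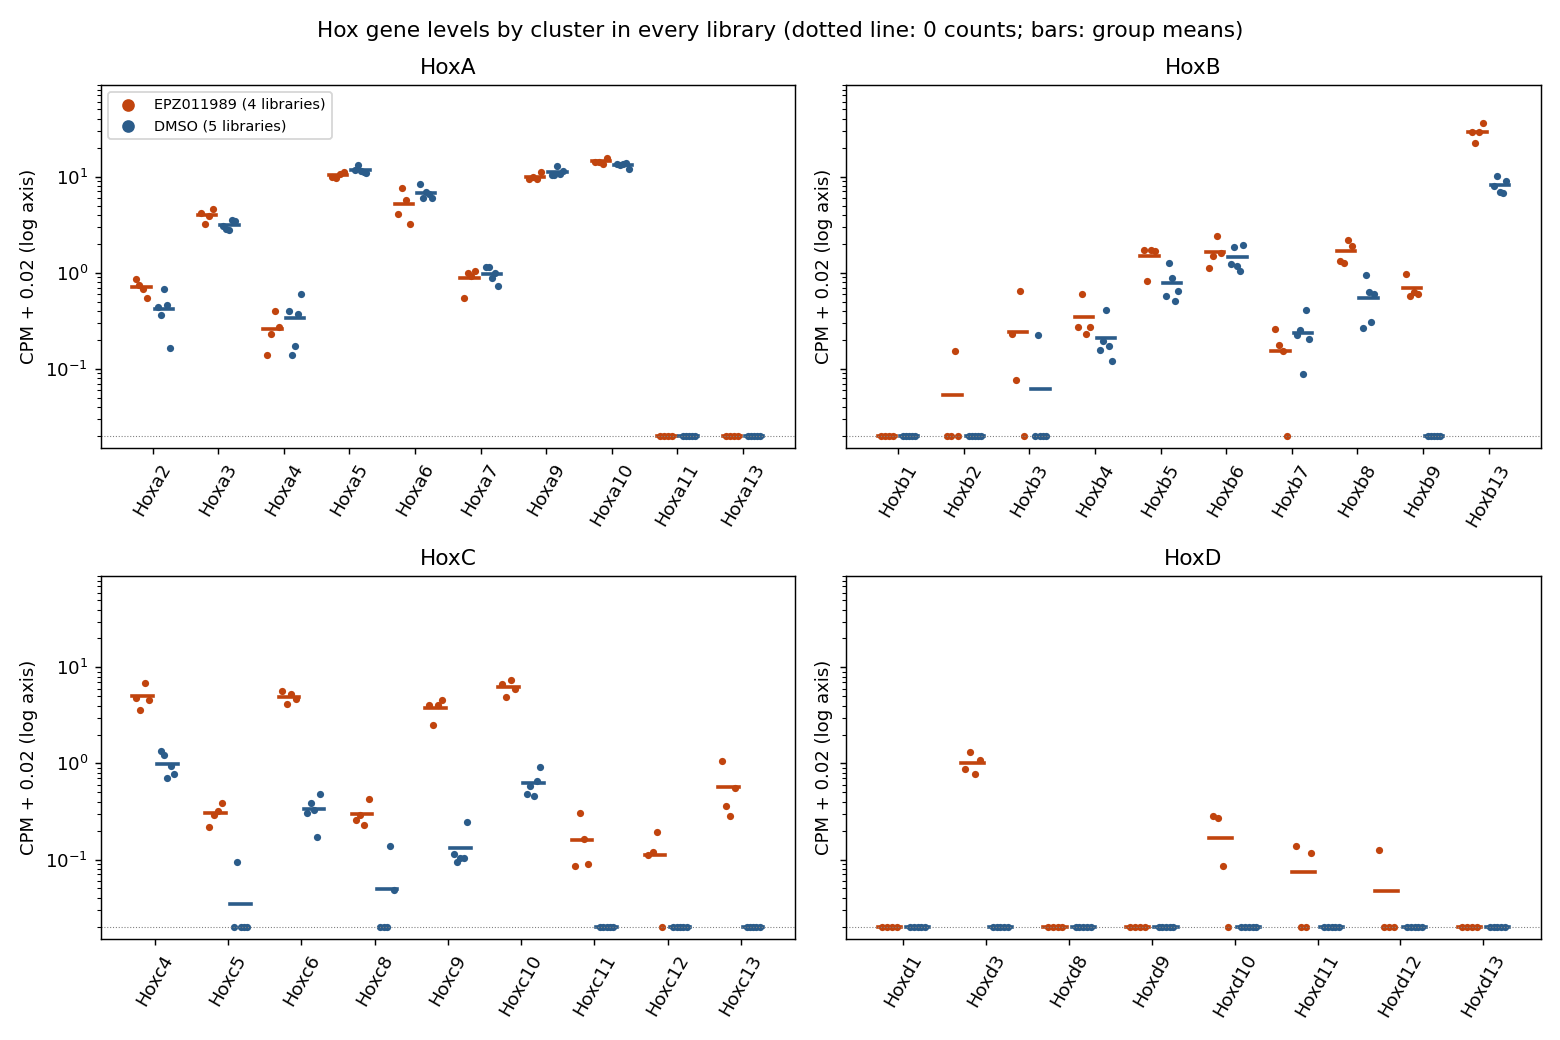
CPM of the Hox genes in each library (log axis, CPM + 0.02), EPZ011989 to the left of DMSO within each gene and 1 point per library. Points at the bottom of the axis are libraries at 0, among them all 5 DMSO libraries for Hoxb9, Hoxc13 and Hoxd3.

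HoxB lies on chr11:96194316-96368256, with Hoxb13 set apart at its 5′ end. Hoxb13, known for the prostate and the tail end of the gut, had 29.0, 22.4, 29.2 and 35.9 CPM with EPZ011989, against 7.90, 10.2, 6.85, 6.74 and 9.03 CPM with DMSO. The groups did not overlap, and the log2 fold change was 1.84 ± 0.16 (adjusted p = 1.44e-05, edgeR).

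Hoxb9, a gene of the thoracic region, had 0.954, 0.549, 0.606 and 0.575 CPM with EPZ011989 and 0 in each DMSO library. It was at least 3.82-fold higher against the floor of 12 counts (adjusted p = 3.86e-04, edgeR). Hoxb8, known in the mouse for a grooming phenotype and for marking some microglia, had 1.30, 1.24, 2.16 and 1.89 CPM with EPZ011989, against 0.244, 0.928, 0.609, 0.287 and 0.586 CPM with DMSO. All EPZ011989 libraries were higher, with a log2 fold change of 1.63 ± 0.39 (adjusted p = 0.0115, edgeR).

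The HoxB genes from Hoxb4 to Hoxb7 were not called. Hoxb5 had 1.68, 0.802, 1.69 and 1.67 CPM with EPZ011989, against 0.555, 1.24, 0.858, 0.490 and 0.629 CPM with DMSO, and the second EPZ011989 library fell among the DMSO values. Its log2 fold change was 0.95 ± 0.34 (adjusted p = 0.0672, edgeR), and without that library the adjusted p was 0.0174, the lowest of 21 alternatives that reached up to 0.245. Hoxb6 averaged 1.64 ± 0.56 CPM with EPZ011989 and 1.43 ± 0.41 CPM with DMSO, within the spread of the libraries (adjusted p = 0.694, edgeR). Hoxb4, used in blood stem cell work for its effect on self-renewal, averaged 0.323 ± 0.170 CPM with EPZ011989 and 0.190 ± 0.114 CPM with DMSO (adjusted p = 0.365, edgeR). Hoxb7 averaged 0.131 CPM with EPZ011989 and 0.216 CPM with DMSO (adjusted p = 0.596, edgeR). Below the filter were Hoxb2, at 0.0330 CPM with EPZ011989 and 0 with DMSO, and Hoxb3, at 0.222 CPM with EPZ011989 and 0.0412 CPM with DMSO. Hoxb1 was at 0 in all libraries. Of the exons of Hoxb3, 52.9% overlap its antisense RNA Hoxb3os, which averaged 0.578 ± 0.228 CPM with EPZ011989 and 0.0833 ± 0.1157 CPM with DMSO (adjusted p = 0.0724, edgeR). The sources used here do not say whether counting used strand, so counts of overlapping genes on opposite strands cannot be told apart.

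HoxD, on chr2:74668310-74765142, had no count in any DMSO library over the 8 genes described here. Hoxd3, which patterns the first neck vertebrae in the mouse, had 0.861, 1.31, 0.765 and 1.07 CPM with EPZ011989, and was at least 5.69-fold higher against the floor (adjusted p = 1.77e-04, edgeR). Of its exons, 53.1% are also annotated to the gene model Gm28230 and 9.26% to Hoxd4. Both lie on the same strand and are not analysed here, and counts of shared bases cannot be told apart. An antisense RNA over 8.28% of the Hoxd3 exons, listed as 1700109F18Rik, averaged 0.277 ± 0.190 CPM with EPZ011989 and 0.0277 ± 0.0619 CPM with DMSO (adjusted p = 0.0654, edgeR).

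At the 5′ end of HoxD, the limb genes Hoxd10, Hoxd11 and Hoxd12 had counts in 3, 2 and 1 of the 4 EPZ011989 libraries. Hoxd10 had 0.265, 0.253, 0.0659 and 0 CPM with EPZ011989. All 3 stayed below the filter, with adjusted p-values of 0.0502, 0.131 and 0.217 in edgeR's fit with no filter. DESeq2 called Hoxd10, with an adjusted p of 0.0175. Hoxd1 at the 3′ end, Hoxd8 and Hoxd9 between Hoxd3 and Hoxd10, and Hoxd13 at the 5′ end were at 0 in all 9 libraries and thus not detectable at this depth in either group.

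HoxA, whose described genes span chr6:52162417-52260880, was the cluster with the highest sum in DMSO. Of these genes, 8 passed the filter and 0 were called by edgeR, DESeq2 or limma-voom, while 1 was higher and 0 lower at an unadjusted p under 0.05 (edgeR). Of all genes tested, edgeR called 16.2% higher and 7.96% lower. Hoxa10, known for the uterus and the hindlimb, had 14.2, 14.2, 13.4 and 15.7 CPM with EPZ011989, against 13.6, 13.2, 13.4, 13.7 and 11.9 CPM with DMSO. The groups overlapped, and the log2 fold change was 0.13 ± 0.08 (adjusted p = 0.309, edgeR). Hoxa5, known for the lung, had 9.83, 9.57, 10.7 and 11.03 CPM with EPZ011989, against 11.8, 13.1, 11.5, 11.2 and 10.9 CPM with DMSO. Its log2 fold change was -0.18 ± 0.09 (adjusted p = 0.179, edgeR), and the highest EPZ011989 library lay just above the lowest DMSO library.

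Hoxa9, a regulator of blood progenitors, averaged 9.95 ± 0.89 CPM with EPZ011989 and 11.1 ± 1.0 CPM with DMSO (adjusted p = 0.314, edgeR). Hoxa6 had 4.04, 7.63, 5.72 and 3.19 CPM with EPZ011989, against 8.27, 5.94, 6.89, 6.52 and 5.97 CPM with DMSO. The second EPZ011989 library lay above 4 of the 5 DMSO libraries while the other 3 lay below all of them, and the log2 fold change was -0.39 ± 0.23 (adjusted p = 0.271, edgeR). Without that library the value was -0.65 with an adjusted p of 0.0232, the lowest of 21 alternatives that reached up to 0.442.

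Hoxa3, known for the thymus and parathyroid, had 4.19, 3.22, 3.88 and 4.55 CPM with EPZ011989, against 3.02, 2.83, 2.74, 3.54 and 3.43 CPM with DMSO. The groups overlapped, with a log2 fold change of 0.35 ± 0.15 (adjusted p = 0.117, edgeR). Hoxa2, known for the second pharyngeal arch, averaged 0.686 ± 0.136 CPM with EPZ011989 and 0.401 ± 0.188 CPM with DMSO (adjusted p = 0.229, edgeR). Hoxa4 averaged 0.241 CPM with EPZ011989 and 0.318 CPM with DMSO (adjusted p = 0.690, edgeR). Hoxa7 averaged 0.855 CPM with EPZ011989 and 0.955 CPM with DMSO (adjusted p = 0.750, edgeR). Hoxa11 and Hoxa13, the limb and genital genes at the 5′ end, were at 0 in all libraries.

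**Figure D4:**
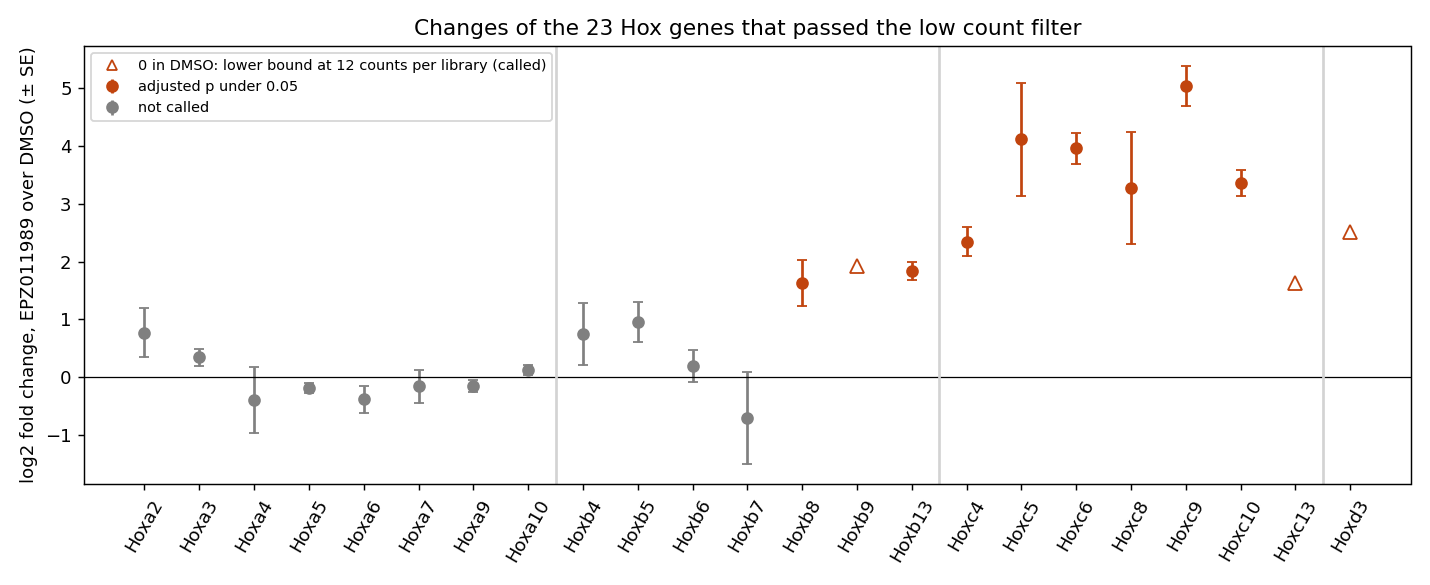
Log2 fold change (EPZ011989 over DMSO) ± SE of the 23 Hox genes that passed the filter, ordered by cluster and paralog number, with open triangles for the lower bounds of Hoxb9, Hoxc13 and Hoxd3. HoxC values run from 2.35 for Hoxc4 to 5.04 for Hoxc9 among the genes with counts in DMSO, and the 8 HoxA genes were not called.

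Levels between genes can be compared per length of annotated exons. In CPM per kb with EPZ011989, Hoxb13 led at 13.2 ± 2.5, followed by Hoxa6 at 5.89 ± 2.24, Hoxa5 at 5.48 ± 0.37, Hoxa10 at 4.40 ± 0.29 and Hoxc10 at 3.24 ± 0.55. Hoxc6, Hoxc4, Hoxa9 and Hoxc9 came next, between 2.05 and 1.56 CPM per kb. In DMSO the order was Hoxa6 at 7.68 ± 1.09, Hoxa5 at 6.23 ± 0.45, Hoxa10 at 4.03 ± 0.23, Hoxb13 at 3.69 ± 0.67 and Hoxa9 at 1.99 ± 0.18. Neighbours in these orders whose SDs overlap, such as Hoxa6 and Hoxa5 with EPZ011989 or Hoxa10 and Hoxb13 with DMSO, do not differ beyond their spread. The highest HoxC gene in DMSO was Hoxc4 at 0.379 CPM per kb.

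**Figure D5:**
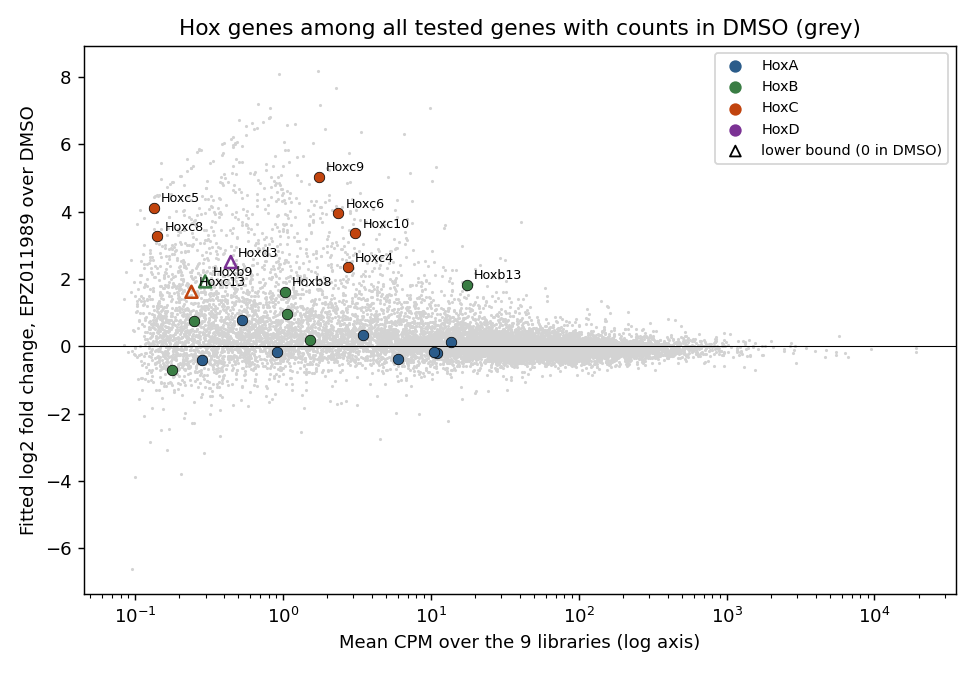
Log2 fold change (EPZ011989 over DMSO) against mean CPM over the 9 libraries (log axis), with Hox genes coloured by cluster and, in grey, all tested genes with counts in DMSO. Open triangles are lower bounds for the 3 Hox genes at 0 in DMSO, and the HoxC points from Hoxc4 to Hoxc9 lie above most genes of their level.

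The sequences just upstream of the start sites were read for the Hox genes that the RefSeq promoter table (GRCm38.p6) holds, 23 promoters of 21 genes, each with 300 bases. The shown stretches are the 250 bases before the start of Hoxb8, which rose, of Hoxa5, which was high in both groups, and of Hoxd13, which was at 0 throughout, each 5′ to 3′ on the strand of its gene with the CG pairs in capitals. They lie at chr11:96281655-96281904 on the forward strand, chr6:52204588-52204837 on the reverse strand and chr2:74667975-74668224 on the forward strand.
Hoxb8 promoter: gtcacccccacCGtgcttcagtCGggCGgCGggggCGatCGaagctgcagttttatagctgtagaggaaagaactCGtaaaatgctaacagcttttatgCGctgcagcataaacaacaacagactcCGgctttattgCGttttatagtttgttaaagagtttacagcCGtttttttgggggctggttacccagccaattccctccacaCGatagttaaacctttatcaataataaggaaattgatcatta
Hoxa5 promoter: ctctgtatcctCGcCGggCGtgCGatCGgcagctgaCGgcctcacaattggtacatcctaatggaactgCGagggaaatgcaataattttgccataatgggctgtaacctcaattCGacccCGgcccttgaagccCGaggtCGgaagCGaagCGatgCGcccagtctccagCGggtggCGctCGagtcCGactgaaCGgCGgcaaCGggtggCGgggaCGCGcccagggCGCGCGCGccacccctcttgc
Hoxd13 promoter: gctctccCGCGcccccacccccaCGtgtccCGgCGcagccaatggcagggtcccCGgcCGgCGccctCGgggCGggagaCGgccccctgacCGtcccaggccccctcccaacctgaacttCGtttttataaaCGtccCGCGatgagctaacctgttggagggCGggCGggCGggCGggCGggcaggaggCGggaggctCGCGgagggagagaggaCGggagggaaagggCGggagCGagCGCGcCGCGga
The printed stretch holds 12 CG pairs for Hoxb8, 28 for Hoxa5 and 31 for Hoxd13. Over all 300 bases, 11 of the 23 Hox promoters had at least 50% GC and a CpG ratio (observed over expected) of at least 0.6, 47.8% beside 33.5% of the 32851 promoters in the table. The median CpG ratio was 0.657 for the Hox promoters and 0.384 for all. Of the 11 genes that rose, 3 have a promoter here, with CpG ratios of 0.333 to 0.970. The ratio was 0.280 to 1.02 over 9 promoters of uncalled genes and 0.257 to 0.918 over 11 of genes below the filter. These ranges overlap, and the 3 printed stretches describe their own genes only. The motif TATAAA, searched on both strands, was in 3 of 23 Hox promoters (13.04%), Hoxb8 and Hoxd13 among them, and in 13.6% of all. GAGAG, searched likewise and unable to overlap with TATAAA, was in 15 of 23 (65.2%) and in 62.0% of all. A match describes the letters only.

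The 8 Hox cofactors described here passed the filter. Of these, 3 rose and 0 fell, beside 16.2% and 7.96% of all genes tested, with a median log2 fold change of 0.18. At an unadjusted p under 0.05 edgeR gave 2 lower, DESeq2 called 1 lower and limma-voom 0. Pknox2, a TALE homeodomain partner, had 2.64, 1.73, 2.39 and 2.27 CPM with EPZ011989, against 0.0541, 0.103, 0, 0 and 0 CPM with DMSO, without overlap (adjusted p = 1.18e-04, edgeR). Its DMSO libraries held at most 7 counts, under the floor of 12, so Pknox2 passed the filter through its EPZ011989 libraries alone. Its log2 fold change was 6.07 ± 0.71 with a range of 3.803 to 7.13 over the alternatives. Pbx3 averaged 2.69 CPM with EPZ011989 and 1.00 CPM with DMSO (adjusted p = 3.84e-04, edgeR), and Pbx4 10.5 CPM with EPZ011989 and 7.22 CPM with DMSO (adjusted p = 0.0167, edgeR, lost in 5 of 21 alternatives, up to 0.121). The abundant cofactors were not called, with Pbx2 at 59.1 CPM with EPZ011989 and 51.9 CPM with DMSO, Meis1 at 58.2 CPM with EPZ011989 and 67.8 CPM with DMSO, and Pknox1 at 49.3 CPM with EPZ011989 and 56.1 CPM with DMSO. Meis1, with an adjusted p of 0.0610 (edgeR), was called lower in 8 of 21 alternatives, DESeq2 among them, over a range of 0.0171 to 0.178.

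The ParaHox and other homeobox genes related or linked to the Hox clusters were mostly silent, with 5 of 19 past the filter and 6 at 0 in all libraries, among them Pdx1 and Cdx1. Of the 5, 3 rose and 1 fell, beside 16.2% and 7.96% of all genes tested. Dlx3, a gene of skin and bone beside which Dlx4 lies, had 1.99, 2.91, 3.10 and 2.76 CPM with EPZ011989, against 0.0677, 0, 0, 0.219 and 0.114 CPM with DMSO (log2 fold change 5.09 ± 0.69, range 3.74 to 6.09 over the alternatives, adjusted p = 3.58e-04, edgeR). Dlx3 passed the filter through its EPZ011989 libraries alone. Evx1, which sits beyond Hoxa13, averaged 10.2 CPM with EPZ011989 and 6.74 CPM with DMSO (adjusted p = 0.00453, edgeR), and Dlx4 9.70 CPM with EPZ011989 and 7.53 CPM with DMSO (adjusted p = 0.0359, edgeR, lost in 10 of 21 alternatives, up to 0.142). Meox2, a mesoderm gene that is also on the fibroblast list used to check the cells, was lower, at 40.6 CPM with EPZ011989 and 56.8 CPM with DMSO (log2 fold change -0.49 ± 0.06, adjusted p = 2.47e-04, edgeR). Dlx1 was not called, at 0.686 CPM with EPZ011989 and 0.292 CPM with DMSO.

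Of 18 genes of the retinoic acid pathway, 14 passed the filter, 8 rose and 1 fell, beside 16.2% and 7.96% of all genes tested. The median log2 fold change of the 14 was 0.98. Of the risers, Aldh1a3, Rxrg and Cyp26b1 passed the filter through their EPZ011989 libraries alone, so the count and the median are a description. Aldh1a1 and Aldh1a3 make retinoic acid from retinal. Aldh1a1 had 2.86, 2.55, 3.44 and 3.38 CPM with EPZ011989, against 0.284, 0.206, 0.318, 0.203 and 0.200 CPM with DMSO (log2 fold change 3.64 ± 0.23, adjusted p = 1.77e-06, edgeR). Aldh1a3 had 1.62 to 2.84 CPM with EPZ011989 and 0 with DMSO, at least 13.4-fold higher against the floor (adjusted p = 2.65e-05, edgeR). Neither gene's groups overlapped. Among the receptors, Rarg averaged 21.8 CPM with EPZ011989 and 13.4 CPM with DMSO, Rxra 59.9 CPM with EPZ011989 and 41.2 CPM with DMSO, and Rara 5.76 CPM with EPZ011989 and 3.08 CPM with DMSO (adjusted p = 2.44e-04, 6.56e-04 and 0.00223, edgeR). Rarb, itself a well-known target of retinoic acid and chosen after its values were seen, was the single gene that fell, at 9.57 CPM with EPZ011989 and 12.02 CPM with DMSO (log2 fold change -0.33 ± 0.09, adjusted p = 0.0208, edgeR, lost in 4 of 21 alternatives, up to 0.0971). Dhrs3, which turns retinal back to retinol, averaged 17.4 CPM with EPZ011989 and 7.999 CPM with DMSO (adjusted p = 2.72e-04, edgeR). Rxrb, Rdh10 and Stra6 were not called.

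Genes outside the clusters were followed on the same chromosomes. Of 23 genes fixed as flanks, 20 had a row, 17 passed the filter, 2 rose and 1 fell, beside 16.2% and 7.96% of all genes, with a median log2 fold change of -0.02. Skap2, 149.9 kb from Hoxa2, had 49.3, 47.96, 50.9 and 47.1 CPM with EPZ011989, against 18.9, 17.2, 13.8, 15.4 and 14.9 CPM with DMSO (log2 fold change 1.60 ± 0.10, adjusted p = 1.27e-06, edgeR). The other riser was Evx1, 52.6 kb from Hoxa13. Both flank HoxA. Hibadh, 285 kb from Hoxa13, was lower, at 109 CPM with EPZ011989 and 135 CPM with DMSO (adjusted p = 0.0214, edgeR, lost in 4 of 21 alternatives, up to 0.0742). Of the 5 genes beside HoxC, Calcoco1, Atp5g2, Smug1, Cbx5 and Hnrnpa1, at 116 to 249 kb from the nearest Hox gene, 0 were called, also by DESeq2 and limma-voom, and 0 had an unadjusted p under 0.05 (edgeR). Hnrnpa1 averaged 660 CPM with EPZ011989 and 669 CPM with DMSO (adjusted p = 0.879, edgeR). Hnrnpa3, beside HoxD, was at 884 CPM with EPZ011989 and 1010 CPM with DMSO without overlap and was not called (adjusted p = 0.0556, edgeR), but it was called lower in 8 of 21 alternatives, DESeq2 and limma-voom among them, over a range of 0.00264 to 0.172. Atp5g3, also beside HoxD, was not called.

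Of 22 non-coding RNAs of the clusters, 9 had a row under their current symbol, 1, Hoxb3os, passed the filter and 0 were called by edgeR or DESeq2. At an unadjusted p under 0.05 edgeR gave 1 higher, as limma-voom called. The miRNAs Mir10a and Mir10b, which lie inside HoxB and HoxD, were at 0, and mature miRNAs have no poly-A tail for this library type to capture. Among 9 genes with a row whose exons overlap a Hox gene, 3 passed and 0 were called by edgeR or DESeq2, while 2 were higher at an unadjusted p under 0.05 (edgeR) and by limma-voom. The antisense RNA listed as 2700086A05Rik, which overlaps Hoxa3 and Hoxa7, averaged 0.153 CPM with EPZ011989 and 0.237 CPM with DMSO (adjusted p = 0.595, edgeR).

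The label of the cells was checked with markers. Gcg, the glucagon gene, averaged 18627 ± 2338 CPM with EPZ011989 and 19277 ± 804 CPM with DMSO (adjusted p = 0.778, edgeR), and 3 of 12 alpha cell markers rose and 0 fell (1 lower at an unadjusted p under 0.05 and by DESeq2, 0 by limma-voom). Some markers of other cell types changed as well. Beside the counts of each marker list, here and below, 16.2% of all genes tested were called higher and 7.96% lower. Of 18 fibroblast and stellate cell markers, 12 passed, 9 rose and 1 fell, and their summed level was 105 to 120 CPM with EPZ011989 and 77.6 to 84.8 CPM with DMSO. Of these risers, Col1a1, Pdgfrb, Thy1, Vim and Fbln1 passed the filter through their EPZ011989 libraries alone. Pdgfra averaged 27.6 CPM with EPZ011989 and 7.29 CPM with DMSO, Snai2 20.2 CPM with EPZ011989 and 13.5 CPM with DMSO, and Col6a2 11.2 CPM with EPZ011989 and 0.340 CPM with DMSO. Thy1 averaged 3.28 CPM with EPZ011989 and was at 0 in DMSO. Dcn, Lum, Col3a1 and Acta2 were at 0 in DMSO and reached at most 0.490 CPM in an EPZ011989 library (Col3a1), and Twist1 was at 0 in all libraries.

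Of 7 beta and delta cell markers, 4 passed and all 4 rose, with sums of 6.56 to 9.92 CPM with EPZ011989 and 0.457 to 1.65 CPM with DMSO, and Ins1 and Pdx1 were at 0. Of these risers, Sst and Iapp passed the filter through their EPZ011989 libraries alone. Of 8 acinar and ductal markers, 5 passed, 1 rose and 2 fell, with sums of 38.1 to 42.9 CPM with EPZ011989 and 29.5 to 38.5 CPM with DMSO. Endothelial markers summed to 0.589 to 1.35 CPM with EPZ011989 and 0.118 to 0.311 CPM with DMSO, with 1 of 2 higher, Kdr, which passed likewise. Leukocyte markers summed to 5.34 to 6.82 CPM with EPZ011989 and 1.56 to 2.25 CPM with DMSO, with 1 of 3 higher, Lyz2, which also passed likewise, and with Tyrobp at 0. The part of these genes in the Hox values was not tested.

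The libraries held 60274140 to 74651782 counts. Treated and control libraries lay apart on the first principal component (58.0% of the variance), and the second (10.9%) had EPZ011989 replicates 2 and 4 at opposite ends. EPZ011989 replicate 2 was the lowest of its group in 7 of the 11 Hox genes that rose. Without replicates 2 and 4 together, 10 Hox genes were higher. Hoxb5 gained a call (adjusted p = 0.0447, edgeR, range 0.0174 to 0.245), and the Hoxc5 and Hoxc8 calls were lost with adjusted p-values of 0.0583 and 0.142 (edgeR), beside a range of 0.00109 to 0.0721 over all alternatives for Hoxc5 and of 0.00357 to 0.142 for Hoxc8.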

How the data were processed

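Poly-A RNA-seq libraries of αTC1 cells (4 with EPZ011989, 5 with DMSO) were grouped by the treatment in the labels. HISAT2, StringTie, DESeq2 and the build mm10 are named, without roles or versions, in the submitters' processing notes. The authors deposited whole-number gene counts, which were tested, and a normalized table on a linear signal scale, which was used in alternatives. In the deposited counts 1 was the most frequent value above 0 (3970 values), and 4 (3046) and 5 (2732) were more frequent than 2 (2108) or 3 (2160). Some fragments may thus add about 4 counts and others 1, and as the wider choice the floor for a gene at 0 was set at 12 counts per library, and floors cover counting error only.

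The test was edgeR's (4.0.16, in R 4.3.3) quasi-likelihood F test with a robust fit over all 9 libraries and treatment as the only term, after filterByExpr and TMM scaling. Two-sided p-values had Benjamini-Hochberg adjustment over 14754 genes. CPM use TMM-scaled library sizes and an SE is the log2 fold change over the square root of F. On simulated counts of 13889 genes for this comparison, 94 of 100 genes with a 2-fold change were called, as were 99 of 100 with a 4-fold change, beside 9 false calls. The changed genes were drawn from those with at least 1 CPM in DMSO, so these rates do not cover genes under that level, most Hox genes that rose among them. Each list is described by counts and its median, with no test of the list. Positions and exon overlaps come from GENCODE M21 (GRCm38). Promoters are RefSeq's and coding stretches are GENCODE's.

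A few items that the rules take, Hox cofactors included, are not reported here and are in no count of members. The members and lists were chosen with earlier results of these data known. Named genes are the Hox genes, with full values where called or averaging at least 1 CPM in a group, and of each non-marker list up to 6 called members by p and the 3 highest uncalled ones. Of the marker lists, sums, counts and a few genes are given. The alternatives were other scaling factors, other filters, DESeq2 1.42.0, limma 3.58.1 (voom, and log2 of the normalized value + 1 or + 10), counts divided by 4, the replicate block and leaving out libraries.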

Additional observations from a re-analysis of the deposited data

Results flagged for a closer look

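Of 43 pairs of a Hox gene and a group, 8 had a library far from the others of its group. The rate of about 1 in 20 that chance gives does not hold near 0, where a few counts set the flag. This is so for Hoxc5 (5 counts in 1 library) and Hoxc8 (7 and 2 counts) in DMSO, and the 8 are thus not set against that rate. With EPZ011989, Hoxb9 was highest in replicate 1 at 0.954 CPM (others 0.549 to 0.606), and Hoxb4 in replicate 2 at 0.577 CPM (others 0.211 to 0.253). Hoxb5 was lowest in EPZ011989 replicate 2 at 0.802 CPM, where the others had 1.67 to 1.69. In DMSO, Hoxb4 was highest in replicate 3 at 0.388 CPM (others 0.100 to 0.177) and Hoxa10 lowest in replicate 5 at 11.9 CPM (others 13.2 to 13.7). Of the genes that rose, 1 DMSO library stood high for Hoxc5 in replicate 2 at 0.0737 CPM with the others at 0, Hoxc9 in replicate 5 at 0.229 CPM (others 0.0737 to 0.0947) and Hoxc8 in replicate 4 at 0.118 CPM (others 0 to 0.0286).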

How the results depend on the processing

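The 9 genes Hoxb8, Hoxb9, Hoxb13, Hoxc4, Hoxc6, Hoxc9, Hoxc10, Hoxc13 and Hoxd3 were called higher in each of the alternatives that could test them (19 to 21 of 21). Of 468 values for the 23 Hox genes, 448 kept their direction and side of the threshold, 12 lost a call, 6 gained one and 2 turned, Hoxa4 with the replicate block (log2 fold change 0.00276) and Hoxb6 without EPZ011989 replicate 3 (range over libraries left out -0.0552 to 0.323). Requiring at least 1 CPM in 4 libraries tests fewer low genes and left 6 Hox genes higher, 4 in HoxC and 0 in HoxD. Hoxb9, Hoxc5, Hoxc8, Hoxc13 and Hoxd3 did not pass that filter and were not tested. Counts divided by 4 left 4 in HoxC, as Hoxc5, Hoxc8 and Hoxc13 fell below the filter. DESeq2 called 2 in HoxD, Hoxd3 and Hoxd10, and Hoxd10 stayed below the main filter. Leaving out 1 library gave 10 to 13 Hox genes higher and 0 to 1 lower (Hoxa6 without EPZ011989 replicate 2), with 0 to 1 in HoxA (Hoxa3 without EPZ011989 replicate 2), 3 to 4 in HoxB, 6 to 7 in HoxC and 1 in HoxD, and over all genes 1861 to 2939 higher and 781 to 2377 lower, the most of both without EPZ011989 replicate 2 and the fewest lower without EPZ011989 replicate 3. Upper-quartile factors gave 2735 higher and 776 lower, 77.9% of calls higher against 67.0% with TMM, library size alone 75.6%, and they moved the median of all genes to 0.08.

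Same-numbered libraries did not deviate together (r of -0.10 to 0.03). EPZ011989 libraries 1 to 4 correlated best with DMSO libraries 5, 1, 5 and 5, none with its own number. With the replicate block, 9 Hox genes were higher (Hoxc5 and Hoxc8 lost their calls, adjusted p = 0.0721 and 0.0782, edgeR), and 1550 of all genes were higher and 471 lower. Among other named genes, which gave 722 values, 8 turned, all for genes not called. These were Gcg with upper-quartile factors (0.00537) and without EPZ011989 replicate 2 (leave-one-out range -0.127 to 0.0250), and Hnrnpa1 with upper-quartile factors and library size alone (0.0349 and 0.0273). Atp5g3 turned under the same (0.0387 and 0.0249) and without DMSO replicate 2 or EPZ011989 replicate 2 (range -0.163 to 0.102). Genes at 0 in DMSO are bounded by the floor of 12 counts.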
